A study of Ovis aries with 60 samples.

Results

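The genes described here are the 10 that make and regulate polyamines and that were listed by name: ODC1, AMD1, SRM, SMS, SAT1, the antizymes OAZ1, OAZ2 and OAZ3, and the antizyme inhibitors AZIN1 and AZIN2. All 10 were found by symbol among the 28525 genes of the count table, and 9 of them passed the count filter of at least 15 reads in more than 10 libraries that left 13577 genes for testing. SRM did not pass, since it reached 15 reads in 7 libraries.

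RNA was sequenced from the sperm of 20 F2 rams, 10 grand-progeny of F0 rams fed a methionine supplement (the treatment group) and 10 grand-progeny of F0 control rams (the control group). The supplement was rumen-protected methionine added to the control diet from weaning to puberty, and it was given only to the F0 rams of the treatment group. F1 and F2 animals of both lines were fed the control diet, and all were Polypay sheep. Each line descended from 5 F0 sires with 2 sequenced F2 rams per sire, each sire through a single F1 ram, so rams of the same sire shared a paternal grandsire and a father, and each line rested on 5 lineages. The F0 sires of the control group and those of the treatment group were twins of each other. Semen was collected by electroejaculation from rams that had reached puberty, and cells were treated with a somatic cell lysis buffer before the extraction of total RNA.

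Polyamines are small cations that bind nucleic acids. Putrescine is made from ornithine, and spermidine and spermine are then built by adding aminopropyl groups that come from S-adenosylmethionine, so the pathway draws on methionine. Antizymes bind ornithine decarboxylase, some of them directing it to the proteasome, and antizyme inhibitors bind antizymes in its place. OAZ3 is the testis form of antizyme, made in spermatids after meiosis, and AZIN2 is likewise most abundant in testis and brain.

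The libraries held from 805831 to 13137757 counted reads (median 3436936). These are reads counted to genes. The paper reports more reads sequenced per library, over a narrower range, so counted reads are not a measure of sequencing depth here. Levels are given as CPM scaled by the trimmed mean of M-values (TMM CPM), on which 1 read was worth between 0.139 and 0.809. Libraries are named by their titles, in which the number is that of the ram and the letter its line (T, treatment; C, control). Libraries also differed in makeup. The summed TMM CPM of 15 spermatid markers, transcripts that sperm carry over from spermiogenesis such as PRM1 and SMCP, ranged from 133 in SpermRNA468C to 7676 in SpermRNA485C. The sum of 12 squamous epithelium markers ranged from 139 to 68122 and that of 15 leukocyte markers from 128 to 56690, both lowest in SpermRNA485C and highest in SpermRNA468C. SpermRNA382T (treatment) and SpermRNA485C (control) stood apart from the other 18 in both of these sums, by a gap of 43.2% and 42.5% of the whole log2 range. The markers with the highest medians were KRT78 and KRT4 in the squamous list and S100A9 and S100A8 in the leukocyte list. The sums were not weighted, and S100A9 and S100A8 had medians of 7082 and 2967 TMM CPM, with 388 for CSF3R, the next in the leukocyte list. In both libraries 9 of the 12 squamous and 14 of the 15 leukocyte markers were below their median, whereas KRT5, KRT6A, TP63 (19.4 and 17.05 TMM CPM, median 13.7) and the leukocyte integrin gene ITGAM (15.8 and 15.2, median 11.5) were above it. Sums of 9 spermatocyte markers (49.4 to 289.6) and 9 glandular epithelium markers (99.2 to 16643) also varied. SpermRNA382T and SpermRNA485C stood apart in the glandular sum too, by a gap of 40.8% of its log2 range. Every one of these markers had reads in all libraries except LYZ, which was at 0 in 1 library. Each library had reads for 21848 to 25447 of all 28525 genes, so the presence of reads alone does not show a cell type. The labels call every sample sperm. In such bulk RNA, fewer cells of a type and less RNA per cell cannot be told apart.

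ODC1 encodes ornithine decarboxylase, which makes putrescine and catalyses the first committed step. It ranged in the control group from 6.46 TMM CPM in SpermRNA413C to 44.2 in SpermRNA400C, with a median of 15.1. In the treatment group it ranged from 4.05 in SpermRNA426T to 45.3 in SpermRNA372T, with a median of 21.8. The lines overlapped over nearly their whole span. The lowest value rested on 5 reads.

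AMD1 encodes S-adenosylmethionine decarboxylase, which turns S-adenosylmethionine into the aminopropyl donor and so joins methionine metabolism to this pathway. Its TMM CPM was 23.1 to 289.8 in the control group (median 55.4) and 20.3 to 286 in the treatment group (median 48.8). The 3 highest values were those of SpermRNA485C, SpermRNA359T and SpermRNA382T, at 289.8, 286 and 283, and they came from both lines. SRM, spermidine synthase, was sparsely counted, with 2 to 48 reads per library. It lay between 1.21 and 9.03 TMM CPM in the control group (median 3.77) and between 1.62 and 7.68 in the treatment group (median 3.51). SMS, spermine synthase, was also sparse, with 3 to 63 reads. Its TMM CPM was 0.947 to 12.9 in the control group (median 3.95) and 1.62 to 8.78 in the treatment group (median 4.53), and the lowest values of each line were those of SpermRNA485C and SpermRNA382T.

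SAT1 encodes spermidine/spermine N1-acetyltransferase, whose step is rate-limiting in polyamine breakdown and export. It varied most of the 10 genes. In the control group its TMM CPM was 3.08 in SpermRNA485C and 3460 in SpermRNA468C, with a median of 764. In the treatment group it was 4.04 in SpermRNA382T and 2544 in SpermRNA372T, with a median of 922. These 2 lowest values rested on 13 and 10 reads, whereas the next lowest of the 20 libraries was 231 TMM CPM, from 429 reads in SpermRNA413C. The SD of the log2 level over the 20 libraries was 2.68, larger than that of 99.8% of the genes tested, for which the median SD was 0.91.

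OAZ1 and OAZ2 encode the broadly expressed antizymes. OAZ1 lay between 18.3 TMM CPM in SpermRNA413C and 375 in SpermRNA350C in the control group (median 102) and between 57.9 in SpermRNA359T and 295 in SpermRNA323T in the treatment group (median 106). OAZ2 varied least of the 10 genes. Its TMM CPM was 8.62 to 34.3 in the control group (median 13.4) and 9.56 to 22.7 in the treatment group (median 13.3). The SD of its log2 level was 0.48, and 5.13% of the genes tested had a smaller SD.

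OAZ3, the testis antizyme, ranged from 9.96 TMM CPM in SpermRNA468C to 497 in SpermRNA485C in the control group, with a median of 43.1. In the treatment group it ranged from 16.99 in SpermRNA320T to 467 in SpermRNA359T, with a median of 30.6. SpermRNA485C, SpermRNA359T, SpermRNA382T, SpermRNA500T and SpermRNA475C were the 5 highest, at 497, 467, 346, 227 and 176 TMM CPM, and both lines were among them. The SD of its log2 level was 1.74, larger than that of 91.9% of genes.

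AZIN1, the broadly expressed antizyme inhibitor, had TMM CPM from 26.1 in SpermRNA468C to 944 in SpermRNA485C in the control group (median 72.8). In the treatment group it was 37.0 in SpermRNA480T and 976 in SpermRNA359T (median 107). AZIN2 had TMM CPM from 3.81 in SpermRNA468C to 118 in SpermRNA485C in the control group (median 14.7) and from 4.55 in SpermRNA323T to 115 in SpermRNA359T in the treatment group (median 10.9). For both inhibitors 1 library of each line, SpermRNA485C and SpermRNA359T, was highest. Transcript lengths were not used here, so levels were not compared between genes.

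**Figure D1:**
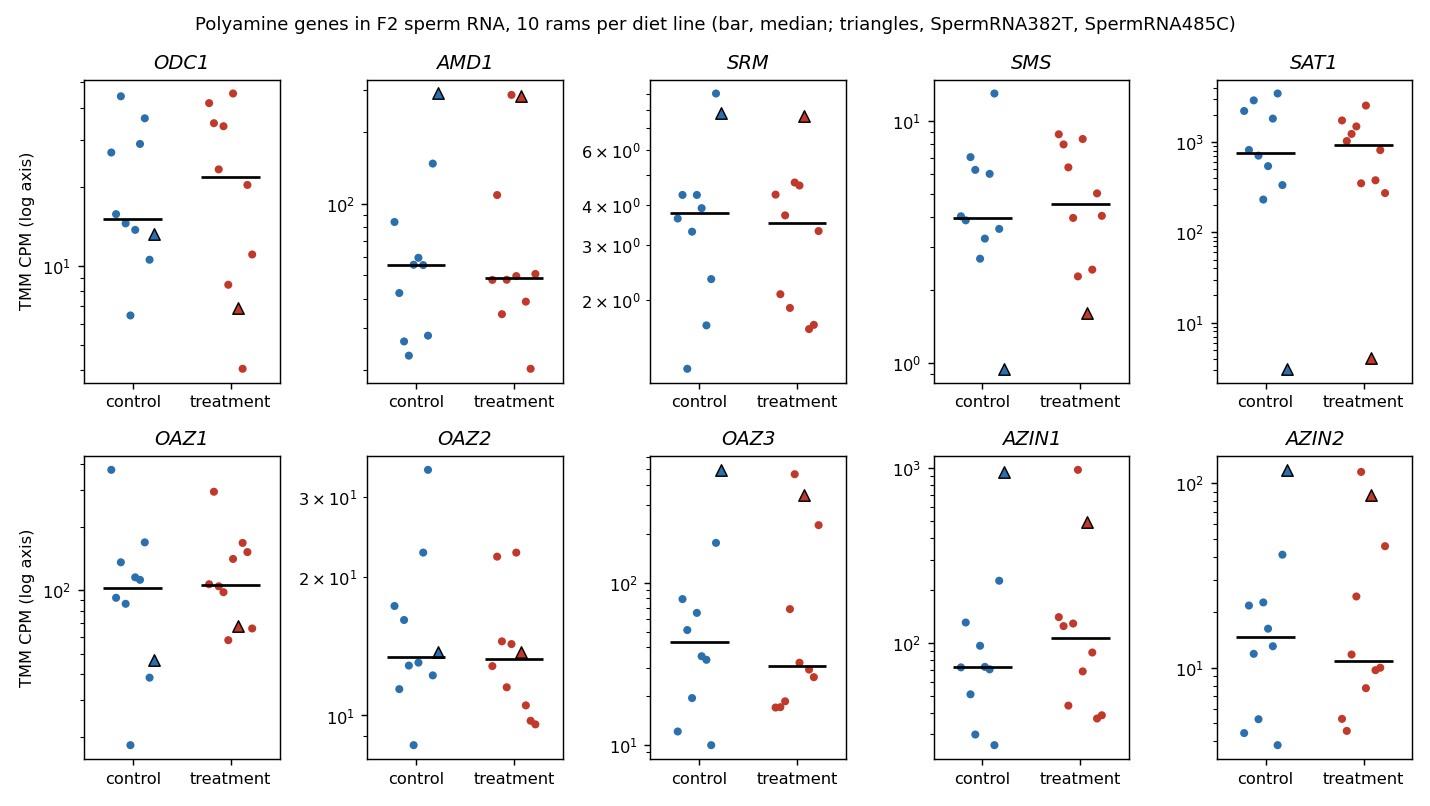
Level of each of the 10 polyamine genes in TMM CPM on a log axis, with 1 point per F2 ram, control group in blue and treatment group in red; bars are medians of 10 rams and triangles mark SpermRNA382T and SpermRNA485C. The lines overlap for every gene, and the triangles lie lowest for SAT1 (3.08 and 4.04) and among the highest for OAZ3 (497 and 346) and AZIN2.

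The question behind the comparison of diet lines was whether the grandsire's diet was followed by a difference in sperm RNA of the grand-progeny. None of the 9 polyamine genes tested passed the threshold of an adjusted p of 0.05, and the background was 0% of 13577 genes called by edgeR's quasi-likelihood test with Benjamini-Hochberg adjustment (0 of 9 members, each with an adjusted p of 1.00). At an unadjusted p under 0.05 edgeR had 104 of all genes (0.766%) and none of the members, and the DESeq2 Wald test called 0 genes, with 174 under 0.05 unadjusted.

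Differences are given as the log2 fold change of treatment over control with its SE. They were 0.13 ± 0.43 for ODC1, 0.25 ± 0.56 for AMD1 and 0.02 ± 0.37 for SMS, the enzymes of synthesis. For SAT1 the log2 fold change was -0.40 ± 0.81, with a 95% confidence interval from -2.08 to 1.27. The antizymes had 0.08 ± 0.48 (OAZ1), -0.20 ± 0.28 (OAZ2) and 0.35 ± 0.76 (OAZ3), and the inhibitors had 0.32 ± 0.72 (AZIN1) and 0.31 ± 0.66 (AZIN2). The narrowest interval was that of OAZ2, from -0.77 to 0.38, which corresponds to 0.586-fold to 1.30-fold. For OAZ3 the interval ran from 0.429-fold to 3.79-fold. In the fit without a count filter SRM had -0.14 ± 0.35, with an unadjusted p of 0.686 in edgeR. A p above the threshold does not show that the lines were alike, and the intervals give the sizes that these rams left possible.

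The median log2 fold change over the 9 members was 0.13, with 7 above 0, and over all genes tested it was -0.05, with 42.8% above 0. Single rams set the sign of several of these differences. Without SpermRNA359T of the treatment group the log2 fold change of AZIN1 was -0.41, that of OAZ3 -0.17, that of AZIN2 -0.19 and that of AMD1 -0.10. Without SpermRNA485C of the control group that of AZIN1 was 1.31 ± 0.63 (edgeR, unadjusted p = 0.0492, adjusted p = 1.00). Without both SpermRNA382T and SpermRNA485C it was 1.10 ± 0.63 for AZIN1, 0.93 ± 0.70 for OAZ3 and 0.77 ± 0.60 for AZIN2, and none of the 9 genes passed.

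Marker levels overlapped between the lines as well. The spermatid sum was 252 to 6616 TMM CPM in the treatment group (median 566) and 133 to 7676 in the control group (median 760). The leukocyte sum was 206 to 26615 (median 12598) and 128 to 56690 (median 10493). With the leukocyte sum as a covariate the log2 fold change of SAT1 was -0.02 ± 0.30 and with the spermatid sum it was 0.05 ± 0.68. With the squamous sum it was -0.68 ± 0.42. For AZIN1 the log2 fold change was 0.70 ± 0.45 with the leukocyte sum, 0.39 ± 0.41 with the spermatid sum and 0.88 ± 0.46 with the squamous sum. No member passed in any of these fits.

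Genes adjoining the pathway were read the same way: arginases and ornithine aminotransferase, oxidases, methionine adenosyltransferases and the methionine salvage enzymes, the hypusine enzymes and EIF5A, and polyamine transporters. Of 29 listed, 28 were in the table used here and 21 passed the filter, and edgeR called 0 of the 21. Their median log2 fold change was 0.03. The 3 furthest from 0 were ARG1 (-0.93 ± 0.75), SLC18B1 (0.77 ± 0.33) and APIP (0.66 ± 0.27). ARG1 makes ornithine, SLC18B1 carries polyamines into vesicles and APIP acts in methionine salvage.

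APIP was 1.96 to 5.27 TMM CPM in the control group (median 3.71) and 2.08 to 8.10 in the treatment group (median 6.29). SLC18B1 was 2.02 to 7.90 in the control group (median 5.77) and 3.42 to 15.3 in the treatment group (median 8.47). Both pairs of ranges overlapped. These were the only neighbours under an unadjusted p of 0.05 in edgeR (0.0217 for APIP and 0.0296 for SLC18B1, each with an adjusted p of 1.00), beside 0.766% of all genes. That share is smaller than a cutoff of 0.05 would mark by chance, so it is not a chance rate. An excess among the neighbours was not tested. Both genes were sparsely counted, with 3 to 41 reads of APIP and 4 to 73 of SLC18B1 per library.

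**Figure D2:**
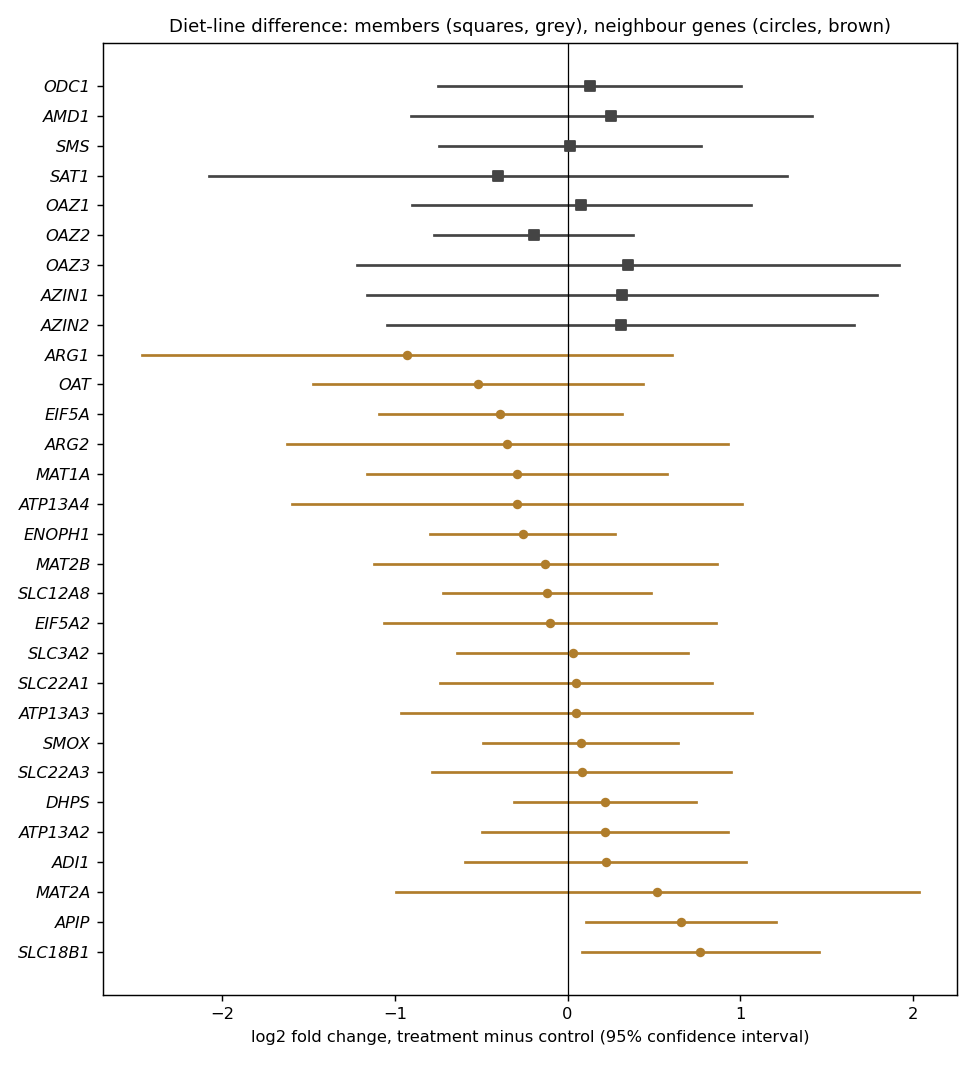
Log2 fold change of treatment over control (horizontal axis) with its 95% confidence interval from edgeR, for the 9 polyamine genes tested (grey squares) and the 21 neighbour genes tested (brown circles), 10 rams per line. Every interval of the 9 genes spans 0, the widest being that of SAT1 from -2.08 to 1.27, and the intervals of APIP and SLC18B1 lie above 0 before adjustment.

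The next question was how the level of each gene stood to the makeup of its library. Correlations were taken over libraries between the log2 TMM CPM of a gene and the log2 summed level of a marker list, with two-sided permutation tests (100000 resamples, smallest possible p of 1e-05) adjusted over all 13577 genes. Over all 20 libraries, 4 of 9 members were positively correlated with the spermatid sum (OAZ3, AZIN2, AZIN1 and AMD1), beside 23.7% of all genes. A further 4 were negatively correlated (ODC1, OAZ1, SMS and SAT1), beside 30.0% of all genes, and OAZ2 did not pass. The median r over the members was -0.44, which is the r of OAZ2, and over all genes it was -0.05. As members lay on both sides of 0, this median does not describe them as a set. So large a share of the transcriptome followed this sum that a call alone does not set a gene apart. All points of such a correlation share the scaling and depth of their library.

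OAZ3 followed the spermatid sum with r = 0.97 (permutation p = 1e-05, adjusted p = 0.000113) and rho = 0.96 (p = 1e-05, adjusted p = 0.000243). AZIN2 had r = 0.96 (permutation p = 1e-05, adjusted p = 0.000113) and rho = 0.94 (p = 1e-05, adjusted p = 0.000243). Leaving out the 2 libraries farthest from the median, SpermRNA382T and SpermRNA485C, gave r of 0.96 and 0.94. Within the treatment group r was 0.96 and 0.94, and within the control group 0.99 and 0.99.

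AZIN1 had r = 0.81 (permutation p = 1e-05, adjusted p = 0.000113) and rho = 0.71 (p = 0.0008, adjusted p = 0.00453), and AMD1 had r = 0.75 (permutation p = 0.0002, adjusted p = 0.000916) and rho = 0.63 (p = 0.00341, adjusted p = 0.012). Without SpermRNA382T and SpermRNA485C the r of AZIN1 was 0.70 and that of AMD1 0.59. Within the treatment group AZIN1 had r = 0.71 and no longer passed (permutation test, adjusted p = 0.0696). The 4 highest AMD1 levels were in SpermRNA485C, SpermRNA359T, SpermRNA382T and SpermRNA475C, which had the 4 highest spermatid sums, while SpermRNA500T, next in spermatid markers, had 50.8 TMM CPM of AMD1.

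Of the negative relations, SMS had r = -0.83 (permutation p = 2e-05, adjusted p = 0.000173) and rho = -0.75 (p = 0.00023, adjusted p = 0.00194). SAT1 had r = -0.78 (permutation p = 3e-05, adjusted p = 0.000225) and rho = -0.71 (p = 0.00061, adjusted p = 0.00377). OAZ1 had r = -0.69 (permutation p = 0.00056, adjusted p = 0.00205) and rho = -0.77 (p = 0.00014, adjusted p = 0.00136), and ODC1 had r = -0.59 (permutation p = 0.00668, adjusted p = 0.0158) and rho = -0.57 (p = 0.00959, adjusted p = 0.0246). Without SpermRNA382T and SpermRNA485C r was -0.72 for SMS, -0.67 for SAT1, -0.68 for OAZ1 and -0.54 for ODC1, and ODC1 no longer passed (permutation test, adjusted p = 0.0644). Within the treatment group (r = -0.59, permutation test, adjusted p = 0.176) and within the control group (r = -0.60, adjusted p = 0.137) ODC1 did not pass either, and OAZ1 did not pass within the control group (r = -0.72, permutation test, adjusted p = 0.0619). OAZ2 had r = -0.44 (permutation p = 0.0501, adjusted p = 0.0831) and rho = -0.37 (p = 0.113, adjusted p = 0.17). SRM, which was not among the genes tested, had r = 0.57 (permutation p = 0.00852, unadjusted) and rho = 0.51 (p = 0.0224), with r = 0.38 without the same rams.

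Scaling decided part of this. With library size alone, 8030 genes were positively and 1529 negatively correlated with the spermatid sum, against 3217 and 4079 with TMM scaling. OAZ3 (r = 0.98), AZIN2, AZIN1, AMD1 and SAT1 kept their sign and passed, whereas r fell short of the threshold at -0.13 for ODC1, -0.12 for OAZ1 and -0.18 for SMS. OAZ2 turned to r = 0.69 and passed.

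Because SpermRNA382T and SpermRNA485C formed a cluster of their own in the squamous and leukocyte sums, correlations with these lists were taken within the other 18 libraries. Of the 9 members, 5 were positively correlated with the leukocyte sum (ODC1, OAZ1, OAZ2, SMS and SAT1), beside 29.9% of all genes. Another 2 were negatively correlated (OAZ3 and AZIN2), beside 28.2%, and AMD1 and AZIN1 did not pass. The squamous list gave the same 5 and the same 2, beside 30.0% and 28.8% of all genes. The marker sums were not independent, so the spermatid, leukocyte and squamous calls are not separate relations. Within the 18, SpermRNA413C, SpermRNA359T, SpermRNA475C, SpermRNA500T and SpermRNA366C were lowest in both the leukocyte and the squamous sum. Their spermatid sums were high, from 1294 (SpermRNA366C) to 5636 TMM CPM (SpermRNA359T). SpermRNA468C, highest in both, had the lowest spermatid sum. With the squamous list AZIN1 did not pass (r = -0.47, permutation p = 0.048, adjusted p = 0.0761; rho = -0.40, p = 0.0978, and r = -0.50 without the 2 farthest libraries). Neither did AMD1 (r = -0.44, permutation p = 0.0629, adjusted p = 0.0964; rho = -0.40, p = 0.103), but it passed without the 2 farthest libraries (r = -0.61, permutation test, adjusted p = 0.0287). With library size alone both passed, AZIN1 with r = -0.74 (permutation test, adjusted p = 0.00936) and AMD1 with r = -0.73 (adjusted p = 0.00957). Scaling mattered again, since the positive and negative calls over all genes were 4054 and 3824 for leukocyte markers but 163 and 3700 with library size alone, and 4071 and 3914 for squamous markers but 591 and 5220. Median r over the members was 0.73 for leukocyte markers (the r of OAZ2) and 0.60 for squamous markers (the r of OAZ1). Over all genes it was 0.07 and 0.01. With members on both sides of 0, these medians do not describe the members as a set.

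SAT1 was closest to the leukocyte sum, with r = 0.93 (permutation p = 1e-05, adjusted p = 0.000195) and rho = 0.95 (p = 1e-05, adjusted p = 0.000255) over 18 libraries. It had r = 0.91 without the 2 libraries farthest from the median, 0.89 within the treatment group and 0.97 within the control group. Over all 20 libraries r was 0.98, and with library size alone it was 0.73 within the 18. With the squamous sum SAT1 had r = 0.80 (permutation p = 3e-05, adjusted p = 0.000303) and rho = 0.79 (p = 0.00016, adjusted p = 0.000977), but r was 0.21 with library size alone.

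ODC1 had r = 0.77 with the leukocyte sum (permutation p = 0.0002, adjusted p = 0.00109) and rho = 0.86 (p = 4e-05, adjusted p = 0.000495). OAZ1 had r = 0.78 (permutation p = 8e-05, adjusted p = 0.000587) and rho = 0.75 (p = 0.00043, adjusted p = 0.0022), and SMS had r = 0.75 (permutation p = 0.00037, adjusted p = 0.00167) and rho = 0.77 (p = 0.00033, adjusted p = 0.00183). OAZ2 had r = 0.73 (permutation p = 0.00067, adjusted p = 0.00254) and rho = 0.73 (p = 0.00076, adjusted p = 0.00326). Without the 2 farthest libraries, SpermRNA468C and SpermRNA413C, these were 0.72, 0.74, 0.63 and 0.56, and OAZ2 no longer passed (permutation test, adjusted p = 0.0561). Within the treatment group of 9 rams r was 0.68, 0.64, 0.74 and 0.46 and none of the 4 passed, and within the control group it was 0.93, 0.87, 0.80 and 0.86 and all 4 did. With library size alone r was 0.12 for ODC1, 0.35 for OAZ1, -0.06 for SMS and -0.40 for OAZ2, so that of these 4 none passed and the sign of SMS and OAZ2 turned.

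OAZ3 had r = -0.77 with the leukocyte sum (permutation p = 9e-05, adjusted p = 0.000637) and rho = -0.72 (p = 0.00098, adjusted p = 0.00391), and AZIN2 had r = -0.80 (permutation p = 4e-05, adjusted p = 0.00038) and rho = -0.76 (p = 0.00047, adjusted p = 0.00232). Both kept their sign and passed with library size alone, with DESeq2 size factors and with a prior count of 0.5. Within the treatment group neither passed, OAZ3 with r = -0.86 (permutation test, adjusted p = 0.0789) and AZIN2 with r = -0.87 (adjusted p = 0.0554), and within the control group both did (r = -0.79 and -0.83). AZIN1 had r = -0.51 (permutation p = 0.0299, adjusted p = 0.0513) and rho = -0.39 (p = 0.114, adjusted p = 0.165), and AMD1 had r = -0.45 (permutation p = 0.0607, adjusted p = 0.0938) and rho = -0.32 (p = 0.199, adjusted p = 0.263). Across the gap, with all 20 libraries, AZIN1 (r = -0.74) and AMD1 (r = -0.73) passed, as they did within the 18 with library size alone (r = -0.79 and -0.72). OAZ2 lost its call across the gap, with r = 0.41 for the leukocyte sum (permutation test, adjusted p = 0.0996) and 0.38 for the squamous sum (adjusted p = 0.127). The part that any of these cells had in the level of a gene was not tested.

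The squamous correlations, again within the 18 libraries, were 0.73 for ODC1 (permutation p = 0.00048, adjusted p = 0.00207; rho = 0.84, p = 2e-05), 0.60 for OAZ1 (permutation p = 0.00773, adjusted p = 0.0166; rho = 0.57, p = 0.014) and 0.66 for OAZ2 (permutation p = 0.00274, adjusted p = 0.00736; rho = 0.63, p = 0.00627). SMS had r = 0.77 (permutation p = 0.00018, adjusted p = 0.00104; rho = 0.80, p = 7e-05), OAZ3 had r = -0.64 (permutation p = 0.00388, adjusted p = 0.00961; rho = -0.55, p = 0.0192) and AZIN2 had r = -0.67 (permutation p = 0.00226, adjusted p = 0.00636; rho = -0.58, p = 0.0132). Without SpermRNA413C and SpermRNA366C, the farthest from the median, r was 0.74, 0.48, 0.60, 0.79, -0.69 and -0.72 in the same order, and OAZ1 no longer passed (permutation test, adjusted p = 0.0977). With library size alone ODC1 had r = 0.019 and no longer passed (permutation test, adjusted p = 0.956). OAZ1 had r = -0.14 and SMS -0.044, of the opposite sign and short of the threshold, and OAZ2 passed with the opposite sign (r = -0.57, permutation test, adjusted p = 0.0375). OAZ3 and AZIN2 kept their sign and passed (r = -0.69 and -0.70). Within the treatment group, SAT1 (r = 0.89) and AZIN2 (-0.87) alone passed with the squamous sum, and OAZ3 did not (-0.83, permutation test, adjusted p = 0.0769). Within the control group ODC1 (0.82), OAZ2 (0.80) and SMS (0.83) passed, and OAZ1 (0.57), SAT1 (0.77), OAZ3 (-0.58) and AZIN2 (-0.61) did not.

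**Figure D3:**
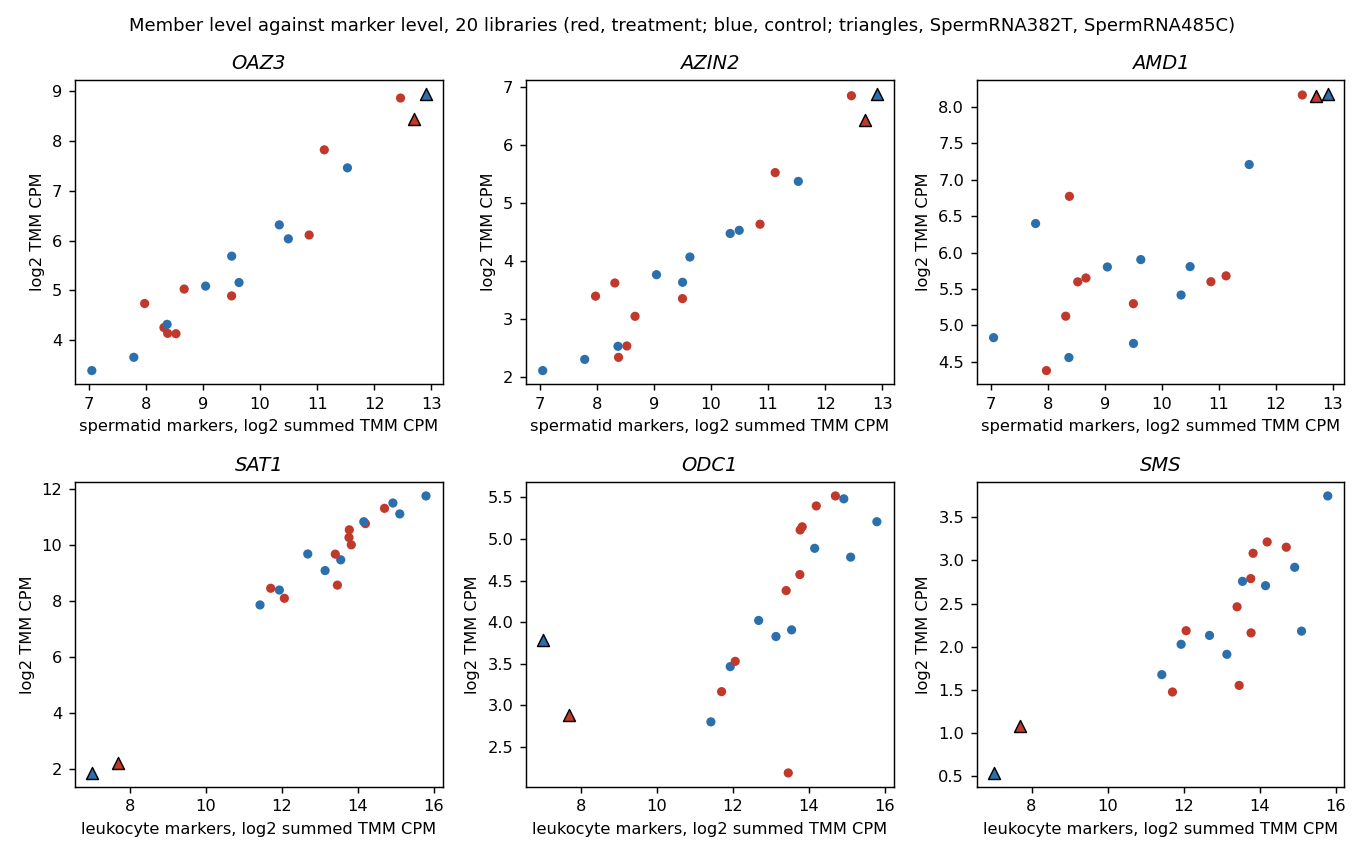
Log2 TMM CPM of OAZ3, AZIN2 and AMD1 against the log2 summed spermatid markers (top) and of SAT1, ODC1 and SMS against the log2 summed leukocyte markers (bottom), 1 point per library, treatment group in red, control group in blue, SpermRNA382T and SpermRNA485C as triangles. OAZ3 and AZIN2 rise along a line over all 20 libraries (r = 0.97 and 0.96), and in the lower row the triangles lie apart from the other 18, within which SAT1 had r = 0.93.

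Of the 21 neighbour genes, 1 was positively and 8 negatively correlated with the spermatid sum, beside 23.7% and 30.0% of all genes. With library size alone the counts were 13 and 4, beside 8030 and 1529 of all 13577 genes. Those of the 8 that no longer passed were ADI1 (r = -0.03), ATP13A3 (-0.23), MAT2B (-0.39) and SLC3A2 (0.27). EIF5A2, a form of the factor that carries the spermidine-derived hypusine, was the positive gene (r = 0.77, permutation p = 0.00013, adjusted p = 0.00066; rho = 0.69, p = 0.00105, and r = 0.63 without SpermRNA382T and SpermRNA485C). ARG2, the mitochondrial arginase, was the most negative (r = -0.83, permutation p = 3e-05, adjusted p = 0.000225; rho = -0.70, p = 0.00068, and r = -0.72 without the same rams). With the leukocyte sum 8 were positively and 4 negatively correlated, beside 29.9% and 28.2% of all genes. With library size alone these counts were 2 and 2, beside 163 and 3700 of all 13577 genes. With the squamous sum the counts were 8 and 3, beside 30.0% and 28.8%. With library size alone they were 1 and 5, beside 591 and 5220 of all genes. ARG2 followed the leukocyte sum with r = 0.92 (permutation p = 1e-05, adjusted p = 0.000195; rho = 0.94, p = 1e-05, and r = 0.89 without SpermRNA468C and SpermRNA413C). ATP13A4, a P-type ATPase of the same family as the polyamine exporter ATP13A2, followed the squamous sum with r = 0.90 (permutation p = 1e-05, adjusted p = 0.000146; rho = 0.90, p = 1e-05, and r = 0.91 without SpermRNA413C and SpermRNA366C).

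Among themselves the 10 genes moved in 2 blocs, which were seen in the values and are given as a description over libraries that share scaling and depth. OAZ3, AZIN2, AZIN1, AMD1 and SRM were positively correlated in all 10 of their pairs, with r from 0.56 to 0.98. ODC1, OAZ1, OAZ2, SMS and SAT1 were positively correlated in all 10 of theirs, with r from 0.36 to 0.84. Between the blocs 24 of 25 pairs were negative, down to -0.81 for SMS with AZIN2, and the exception was OAZ2 with AMD1 at 0.01. Without SpermRNA382T and SpermRNA485C the count was again 24 of 25 with TMM scaling.

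The closest pair was OAZ3 with AZIN2 (r = 0.98, and 0.97 without SpermRNA382T and SpermRNA485C), an antizyme and an inhibitor of antizymes. AMD1 with AZIN1 followed over 20 libraries (0.91), with 0.85 over the other 18. SRM and SMS, synthases that act in sequence, had r of -0.49 over 20 libraries and -0.24 over 18. Both values rest on sparse counts, 2 to 48 reads of SRM, which failed the count filter, and 3 to 63 of SMS. SAT1 with ODC1, breakdown and synthesis, had r of 0.64 over 20 libraries and 0.90 over 18, where with TMM scaling it was closer than AMD1 with AZIN1. With library size alone the first bloc kept all 10 positive pairs (0.80 to 0.99), the second had 6 positive of 10, and 17 of the 25 pairs between blocs were negative. Over the 18 libraries these were 5 of 10 and 13 of 25. With library size alone the highest r in the second bloc was 0.49 over 20 libraries and 0.59 over 18. The lowest r in the first bloc over 18 was 0.72, so AMD1 with AZIN1 was then closer than SAT1 with ODC1.

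**Figure D4:**
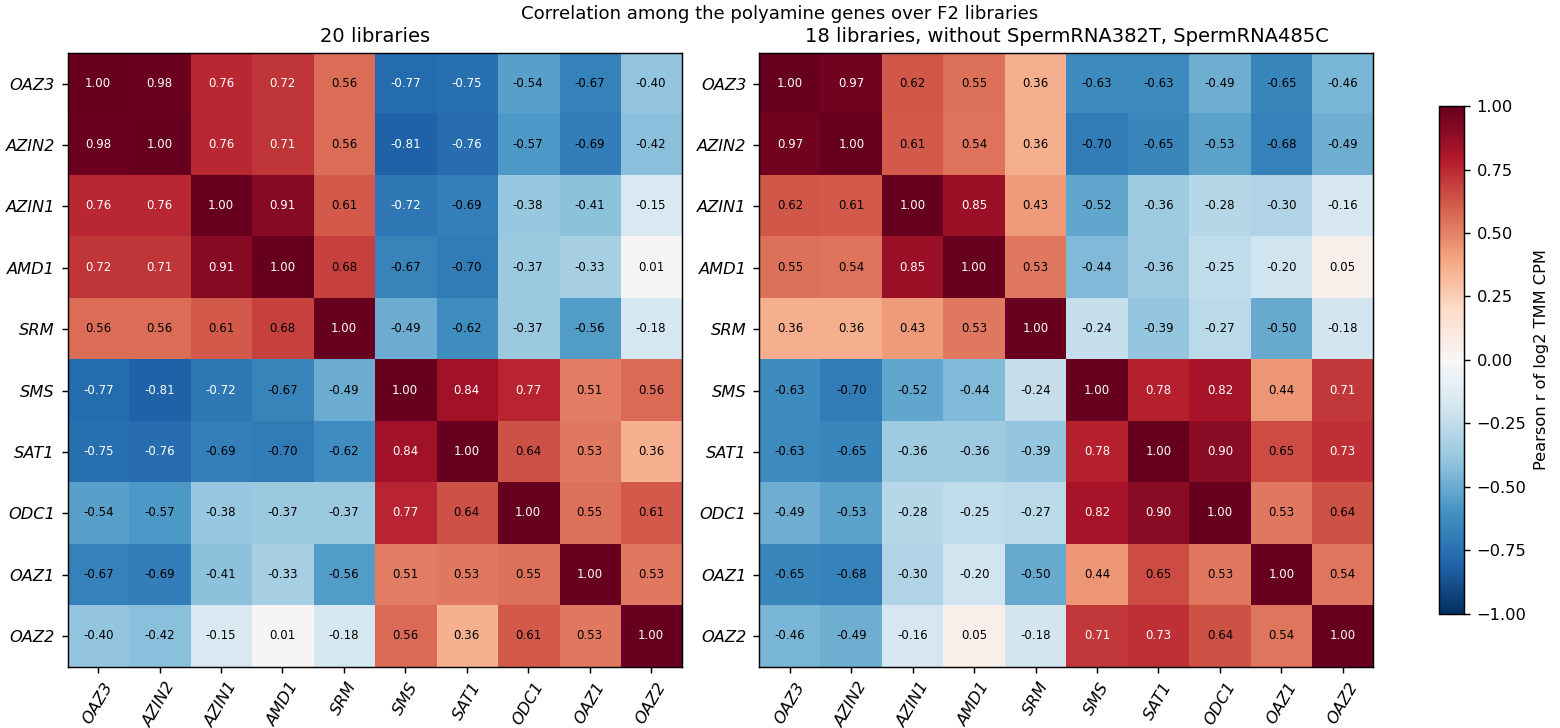
Pearson r of log2 TMM CPM between the 10 polyamine genes, over 20 libraries (left) and over 18 without SpermRNA382T and SpermRNA485C (right), red positive and blue negative. OAZ3, AZIN2, AZIN1, AMD1 and SRM form a positive block at the upper left and SMS, SAT1, ODC1, OAZ1 and OAZ2 another at the lower right, with 24 of 25 pairs between them negative in either panel.

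Ratios of reads within a library do not depend on its scaling. The reads of OAZ3 over those of OAZ1, neither adjusted for length, ranged from 0.0322 in SpermRNA350C to 10.6 in SpermRNA485C. In the control group the median was 0.340, and in the treatment group the ratio was 0.0579 to 8.06 with a median of 0.202. It was above 1 in 6 libraries, SpermRNA485C (10.6), SpermRNA359T (8.06), SpermRNA382T (5.10), SpermRNA475C (4.59), SpermRNA413C (3.56) and SpermRNA500T (3.44), 3 from each line. In the remaining libraries it was at most 0.860. Of these 6 libraries, 5 had the highest spermatid sums of all 20, and SpermRNA413C came below SpermRNA340T, whose ratio was 0.701.

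The reads of AZIN2 over those of AZIN1 had a narrower range in the control group, from 0.0611 in SpermRNA350C to 0.235 in SpermRNA413C, with a median of 0.178. In the treatment group they ranged from 0.0365 in SpermRNA323T to 1.18 in SpermRNA500T, with a median of 0.146. SpermRNA500T was the single library above 1. It had 124 reads of AZIN2 and 105 of AZIN1, and its AZIN1 level of 38.6 TMM CPM was among the lowest whereas its AZIN2 level of 45.6 was the fourth highest.

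**Figure D5:**
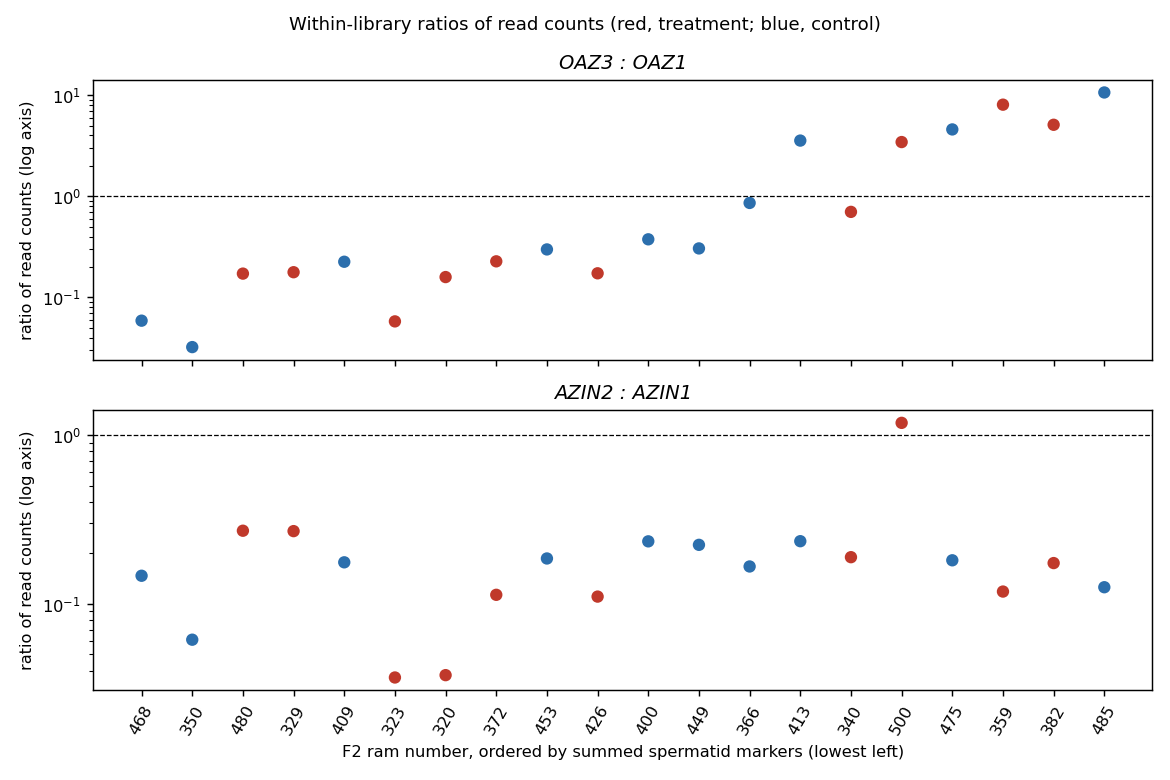
Ratio of the read counts of OAZ3 to OAZ1 (top) and of AZIN2 to AZIN1 (bottom) in each library on a log axis, with rams ordered by their summed spermatid markers, treatment group in red and control group in blue; the dashed line is a ratio of 1. The upper ratio goes from 0.0322 to 10.6 and lies above 1 in 6 libraries, and the lower lies above 1 only in SpermRNA500T (1.18).

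The median difference between rams of the same F0 sire was larger than that between other rams for ODC1, OAZ1, OAZ3, AMD1, SAT1 and AZIN2, and smaller for OAZ2, SRM, SMS and AZIN1. For OAZ3 the median absolute difference in log2 level was 2.23 over the 10 pairs of sire mates and 1.57 over the 180 other pairs. For SAT1 it was 2.01 and 1.62, for ODC1 1.40 and 1.02, and for AZIN1 1.13 and 1.28. Sire 6 had SpermRNA350C and SpermRNA485C, which differed by 5.30 in OAZ3 (12.1 against 497 TMM CPM) and by 9.27 in SAT1 (2214 against 3.08). These differences are a description and were not tested.

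The genes most like each member were taken as the 2 with the highest Pearson r of log2 TMM CPM over the 20 libraries, leaving out the members and unnamed loci. For OAZ3 they were C24H16orf82 (r = 0.99) and MROH7 (0.99), and for AZIN2 PLA2G4F (0.98) and the testis-specific kinase TSSK2 (0.97). AZIN1 was most like AKNAD1 (0.96) and the lipid kinase gene PIP5K1B (0.95), and AMD1 was most like CEP57 (0.91), a centrosomal protein gene, and POLB (0.91), a DNA polymerase gene.

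SAT1 was most like RASGEF1B (0.98) and SOD2 (0.98), the mitochondrial superoxide dismutase, with r of 0.96 and 0.94 over 18 libraries. ODC1 was most like thioredoxin, TXN (0.93), and the copper transporter ATP7A (0.92). OAZ1 was most like the cell cycle inhibitor CDKN1A (0.93) and GPR108 (0.92), and OAZ2 like the peroxiredoxin PRDX1 (0.86) and the proteasome subunit PSMB7 (0.85).

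Neighbours on the chromosome bear on 2 genes. In the RefSeq annotation of ARS-UI_Ramb_v3.0, a later assembly than the authors' Oar_rambouillet_v1.0, OAZ3 overlaps MRPL9 and TDRKH, and ODC1 overlaps LOC114114242. Whether reads were counted by strand was not given in the sources used here, so how reads within the overlaps were handled is not known. Over the 20 libraries 9385 reads were counted for OAZ3, 402 for MRPL9 and 244 for TDRKH, and 1985 reads for ODC1 and 115 for LOC114114242.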

How the data were processed

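RNA of 20 F2 sperm samples was analysed as raw read counts per gene, deposited without normalization. The authors trimmed single-end reads with Trimmomatic, aligned them to Oar_rambouillet_v1.0 with STAR and counted them per gene with its GeneCounts option, and the strand column taken was not given in the sources used here. The column headers are ram numbers, which were matched to the sample titles, and F0 sires were taken from the titles of the same rams' methylation samples.

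Genes reaching 15 counts in over 10 libraries were tested with edgeR 4.0.16 (quasi-likelihood F-test on diet line, TMM scaling, R 4.3.3), with Benjamini-Hochberg adjustment over 13577 genes and a threshold of 0.05. SEs are the log2 fold change divided by the root of F. Log2 TMM CPM used a prior count of 2. Correlations used permutation tests in NumPy 2.4.6, within the larger cluster where marker levels left a gap above 1/3 of their range. Their adjustment was planned over gene and list pairs and was made over all genes tested instead, a change chosen after seeing the data. DESeq2 1.42.0 was an alternative.

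The text names all members, neighbour genes past the threshold or among the 3 furthest from 0, and the 2 most similar genes per member, and for the correlations of neighbours EIF5A2, ARG2, ATP13A4 and the 4 whose spermatid calls were lost with library size alone, chosen after their values were seen. Members and lists were chosen with earlier results of these data known. Scripts were tested on simulated data. The 20 rams were treated as independent although rams of a sire are related, so p-values measure the spread between these rams. The 9 methylation tables were not used here, since gene positions of their assembly were not at hand. The genes most like SMS are not reported here.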

Additional observations from a re-analysis of the deposited data

Results flagged for a closer look

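Within each diet line of 10 rams, the highest and the lowest sample were compared with the rest by Dixon's criterion on the log2 scale, for the 10 genes and the 2 ratios of read counts, 24 groups in all. Chance marks about 1 group in 20. It marked 3, of which 2 were for SAT1. In the control group SpermRNA485C had a log2 TMM CPM of 1.84, and its gap to the next ram was 0.607 of the range. In the treatment group SpermRNA382T had a log2 TMM CPM of 2.18, with a gap of 0.647 of the range, and the critical value was 0.466. These 2 rams also had the lowest leukocyte sums (128 and 206 TMM CPM), squamous sums (139 and 211) and glandular sums (99.2 and 121), and the highest spermatid sums (7676 and 6616). The part of cell makeup in these SAT1 levels was not tested. The third was the ratio of AZIN2 to AZIN1 reads in SpermRNA350C, the lowest of the control group, at -4.03 on the log2 scale (0.0611, from 11 reads of AZIN2 and 180 of AZIN1), with a gap of 0.533 of the range.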

How the results depend on the processing

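The count of polyamine genes called between the diet lines was 0 under every alternative run (DESeq2 size factors, library size alone, no count filter, the DESeq2 Wald test, counts summed per F0 sire, consecutive F0 sires as a block, each marker covariate and all 3, leaving out each ram in turn, and leaving out SpermRNA382T and SpermRNA485C, the last added after seeing the data), as was that of neighbour genes (0) and of all genes (0). Apart from leaving out single rams, 4 differences changed sign. That of SMS was -0.051 with DESeq2 size factors, -0.051 in the DESeq2 Wald test and -0.010 without SpermRNA382T and SpermRNA485C, and that of SAT1 was 0.052 with the spermatid covariate. Leaving out each ram in turn gave ranges of -0.034 to 0.32 for ODC1, -0.15 to 0.47 for OAZ1, -0.17 to 1.22 for OAZ3, -0.10 to 0.74 for AMD1, -0.11 to 0.29 for SMS, -0.41 to 1.31 for AZIN1 and -0.19 to 1.04 for AZIN2, all spanning 0, and of -0.68 to -0.11 for SAT1 and -0.30 to -0.0049 for OAZ2, which kept their sign. The median log2 fold change of all genes was -0.05, and -0.10 with DESeq2 size factors or library size alone.

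The number of members correlated with spermatid markers was 8, and 6 within each diet line of 10 rams, while calls over all genes went from 3217 positive and 4079 negative to 1886 and 1479 (treatment) and 1979 and 1975 (control). The number correlated with squamous markers was 7, and was 2 within the treatment group and 3 within the control group, while calls over all genes went from 4071 positive and 3914 negative to 750 and 654 and to 2431 and 1470. With leukocyte markers it was 7, 1 within the treatment group and 7 within the control group, while calls over all genes went from 4054 and 3824 to 434 and 482 and to 2314 and 2342. The squamous and leukocyte fits hold 9 rams each in place of 18. Library size alone turned r to 0.69 for OAZ2 with spermatid markers, to -0.14 for OAZ1, -0.57 for OAZ2 and -0.044 for SMS with squamous markers, and to -0.40 for OAZ2 and -0.056 for SMS with leukocyte markers. Library size alone differs from TMM scaling only in leaving out the TMM factor. This factor ran from 0.361 in SpermRNA468C to 2.54 in SpermRNA413C, and why it differed between libraries was not tested. The lowest factors, in SpermRNA468C, SpermRNA400C (0.411) and SpermRNA372T (0.484), were in the libraries with the highest squamous sums. The highest, in SpermRNA413C, SpermRNA500T (1.99) and SpermRNA382T (1.95), were in libraries low in squamous and leukocyte sums. The factor scales both the gene and the marker sum in each TMM correlation. Of the 207 correlations of a member recomputed under an alternative, 161 kept their sign and side of the threshold, 31 no longer passed, 9 newly passed and 6 changed sign. OAZ3, AZIN2 and AMD1 with spermatid markers and SAT1 with spermatid and leukocyte markers passed under every alternative run. The share of all genes that passed under every alternative was not counted.

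Pairing by ram number could not be done, since these numbers are unique. The labels do not name the F0 twin pairs, so the block of consecutive F0 sires rests on presumed pairs, and paired in this way SAT1 had a log2 difference of -0.33 (SE 0.90). Methylation at the members' loci, with its 2 alternatives, was not run, since gene positions on Oar_rambouillet_v1.0 were not at hand. The low number of reads counted limits SRM and SMS most (2 to 48 and 3 to 63 reads per library).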
